A study of Mus musculus with 2 samples.

Results

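The MYC, MAX and MXD network is a set of 10 genes in the mouse: Myc, Mycn, Mycl, Max, Mxd1, Mxi1, Mxd3, Mxd4, Mnt and Mga. They were chosen by their place in the network, with earlier results of these data known. Every ARID4B interval that overlapped a gene record or lay within 50 kb of it was read. The 10 genes stand among 21887 protein-coding genes on the assembled chromosomes, and 19 of the 6632 intervals in the list fell in their neighbourhoods. The study mapped ARID4B in wild type testes of postnatal day 1.5 mice on a hybrid C57BL6/J and 129/SvEv background. A pool of 108 testes gave 1 ChIP library, made with an antibody against ARID4B, and 1 input library of unenriched DNA served as its control. There are thus no replicates and no tests below: shares over all protein-coding genes are given beside those of the network. The testes were not sorted, so an interval cannot be assigned to germ cells, Sertoli cells or any other cell of the organ. The list gives each interval a position and the authors' own score, between 70.02 and 1760.61 with a median of 125.0; read depth is unknown.

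MYC proteins are transcription factors that drive growth and proliferation, and they bind DNA only as dimers with MAX, at the E-box letters CACGTG. The MXD proteins, MNT and MGA compete for the same partner and repress. MXD proteins and MNT carry a short amino-terminal domain that recruits the SIN3 scaffold and its histone deacetylases, and ARID4B is a subunit of that SIN3 complex. MGA instead brings MAX into a Polycomb complex, PRC1.6, which in mouse embryonic stem cells keeps germ cell genes silent.

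The promoters below are shown to set starts with and without an E-box or an interval side by side. Mycn has the best-scoring interval, but that interval lies inside the gene and outside the run shown. The interval that reaches the run shown for Mycn scored 134.11. Max and Mnt have both an E-box and an interval at their start, Mxd4 has the E-box and no interval, and Mxd1 has a CpG-rich start and no interval. Each run is read 5′ to 3′ along the gene and ends at its listed start of transcription (for Max, at the end of the E-box that spans it). Sequences and starts are RefSeq's on GRCm38.p6. Capitals mark CACGTG, or in Mycn TTTGGCGC, the letters of an E2F-type site.
Mycn (chr12:12941837-12942086, minus strand): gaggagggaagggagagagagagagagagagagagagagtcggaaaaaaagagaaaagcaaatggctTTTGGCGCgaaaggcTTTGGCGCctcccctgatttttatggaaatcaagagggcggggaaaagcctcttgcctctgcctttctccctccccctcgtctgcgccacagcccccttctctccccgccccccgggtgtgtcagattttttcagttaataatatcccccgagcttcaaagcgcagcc
Max (chr12:76962246-76962498, minus strand): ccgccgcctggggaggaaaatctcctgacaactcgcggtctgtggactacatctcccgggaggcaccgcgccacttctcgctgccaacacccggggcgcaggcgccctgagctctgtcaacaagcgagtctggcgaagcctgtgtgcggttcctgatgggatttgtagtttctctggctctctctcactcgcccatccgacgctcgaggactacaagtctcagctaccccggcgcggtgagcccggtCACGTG
Mnt (chr11:74830674-74830923, plus strand): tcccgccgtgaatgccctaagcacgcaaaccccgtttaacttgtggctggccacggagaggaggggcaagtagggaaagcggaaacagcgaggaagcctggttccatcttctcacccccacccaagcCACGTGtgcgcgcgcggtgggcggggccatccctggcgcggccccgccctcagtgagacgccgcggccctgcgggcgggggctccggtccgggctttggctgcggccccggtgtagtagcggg
Mxd4 (chr5:34187711-34187960, minus strand): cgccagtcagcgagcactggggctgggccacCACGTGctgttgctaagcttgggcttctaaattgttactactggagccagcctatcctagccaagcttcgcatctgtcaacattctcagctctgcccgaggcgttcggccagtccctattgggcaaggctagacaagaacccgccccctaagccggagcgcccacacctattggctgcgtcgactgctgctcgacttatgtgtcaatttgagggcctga
Mxd1 (chr6:86669160-86669409, minus strand): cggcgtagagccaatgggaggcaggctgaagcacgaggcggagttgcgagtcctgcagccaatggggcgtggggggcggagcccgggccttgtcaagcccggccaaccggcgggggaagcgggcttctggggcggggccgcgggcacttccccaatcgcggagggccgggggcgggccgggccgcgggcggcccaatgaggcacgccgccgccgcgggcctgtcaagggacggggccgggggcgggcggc

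ARID4B intervals lay at most genes of the network. An interval reached the 1 kb either side of an end of the gene record at 7 of the 10 genes (Myc, Mycn, Mycl, Max, Mxd3, Mnt and Mga), against 27.1% of all protein-coding genes. Mxi1 had intervals inside its record but none at an outer end, which brought the number with an interval in the record or up to 1 kb from it to 8, against 30.7% of all genes. The same 8 genes were those with an interval within 50 kb, against 52.3% of all genes. Mxd1 and Mxd4 had none: their nearest intervals were 63.2 kb and 99.1 kb from the record, outside the 50 kb limit, while all 8 others had at least 1 interval directly on the record. Records of the network ran from 4731 to 97627 bp, and among protein-coding genes in that range of lengths 30.1% had an interval at an end and 58.0% within 50 kb.

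Several intervals on a single gene were common in the network. Of the 19 intervals, 16 overlapped a member's record, and 6 of the 10 genes carried 2 or more, a number that only 2.60% of all protein-coding genes reached (2.74% among genes of the network's range of lengths). Mycn and Mnt carried 3 each, and 0.352% of all genes had 3 or more. Set only against genes that had any interval in the record, 8.76% had 2 or more and 1.19% had 3 or more. Myc, Mxi1, Mxd3 and Mga carried 2 each and Mycl and Max 1 each. This count was chosen after its values were seen. With intervals less than 1 kb apart joined into 1, 5 genes of the network had 2 or more, Mxd3 dropping out, against 1.53% of all genes. Joining also took Mycn from 3 to 2, since 2 of its intervals lie 126 bp apart. The share of all genes with 3 or more was not counted with intervals joined.

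**Figure D1:**
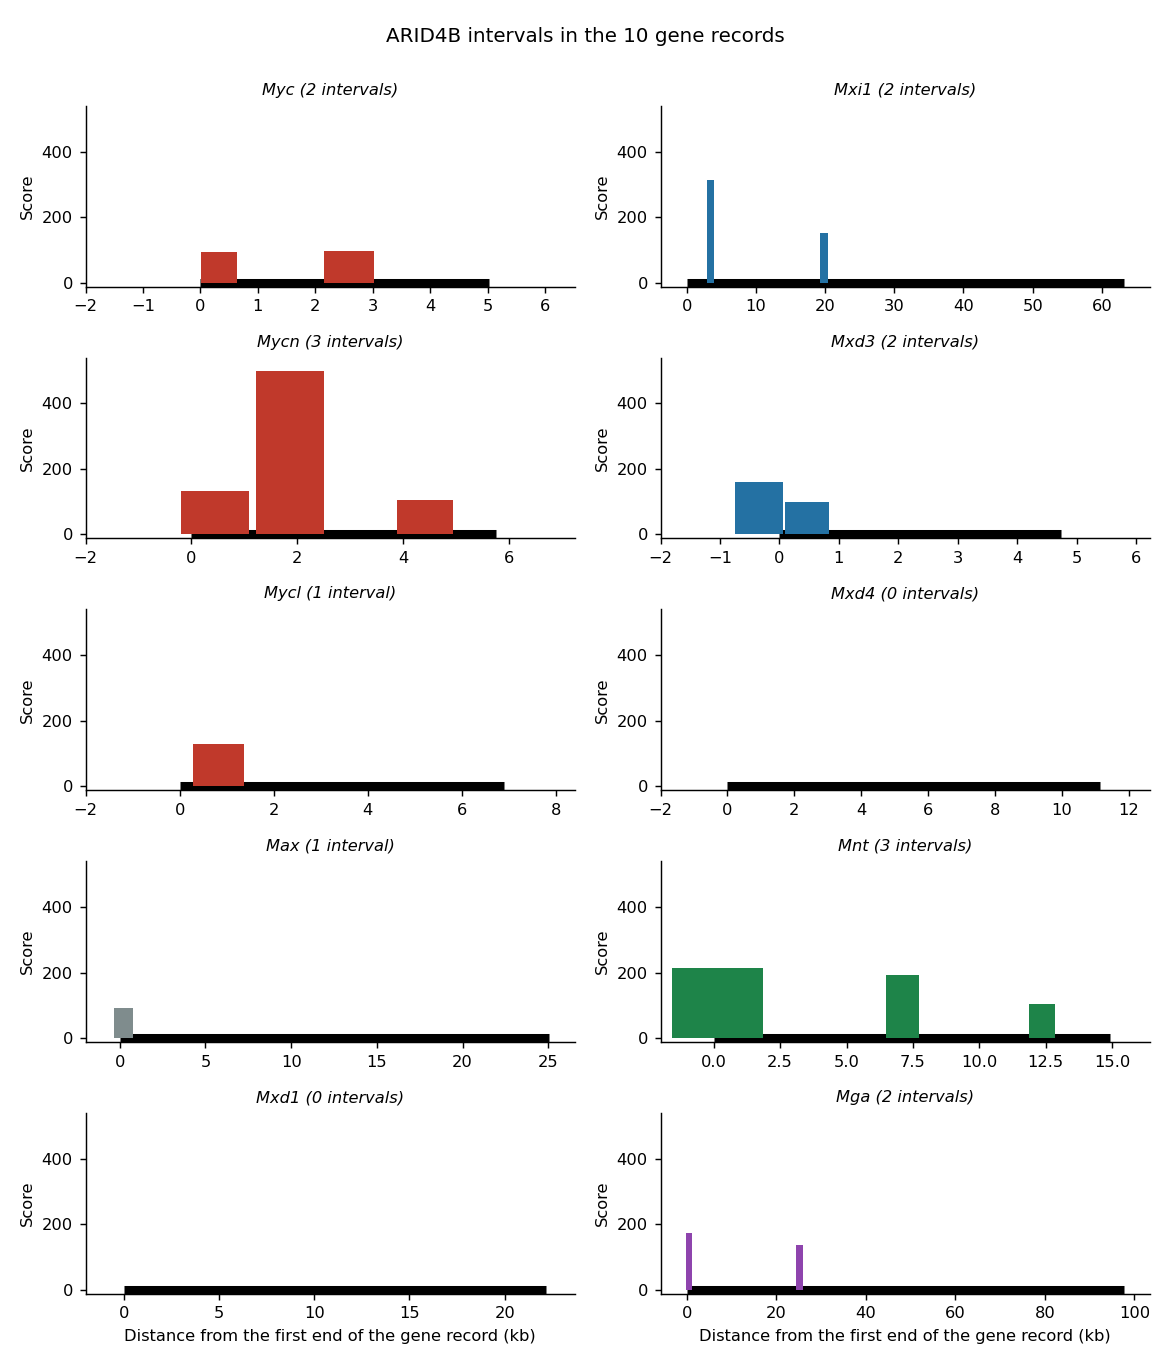
Position and score of every ARID4B interval overlapping the 10 gene records. The x axis is the distance in kb from the 5′ end of the record (for Myc, from its lower-numbered end), the black bar is the record, and each coloured block spans an interval and is as high as its score. Mycn has the tallest block, at 497.68, and Mxd1 and Mxd4 have none.

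Scores were mostly ordinary for the list. The 16 intervals on the records scored between 92.28 and 497.68 with a median of 135.7, and 10 of them were above the median of the list. The best interval at an end had a median score of 134.1 over the 7 genes that had one and of 132.2 over the 5930 protein-coding genes that had one. An end interval above the list's median was present at 5 of the 10 genes, against 14.8% of all genes. Counting the best interval anywhere on the record, the median was 166.5 for the 8 network genes and 131.5 for the 6484 genes with any. Mycn and Mxi1 account for the highest of these values, and in both the best interval lay away from the record's ends. Of the 8 network genes, 6 had 2 or more intervals on the record, against 8.76% of the 6484. A best of several intervals tends to be higher than a single one, and its part in these medians was not tested.

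**Figure D2:**
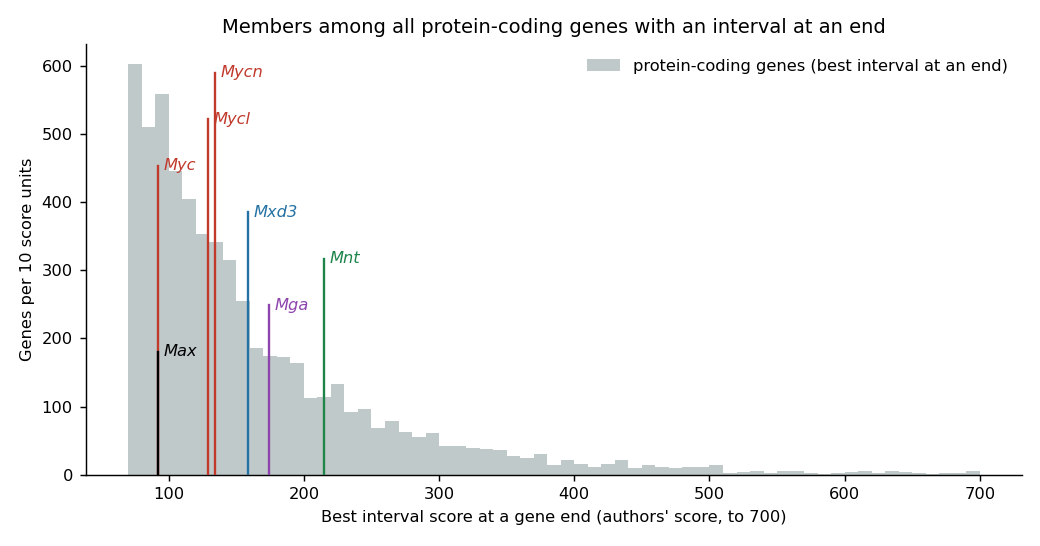
Best interval score at a gene end. The x axis is the authors' score and the y axis the number of protein-coding genes per 10 score units; 35 genes above 700 are not drawn, and line heights only separate the labels. Max (92.43) and Myc (92.28) lie at the low side of the distribution and Mnt (214.91) is the highest of the 7.

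Of the MYC genes, Mycn stood highest. Mycn, which serves progenitor cells of the embryo, is a short gene on the minus strand (chr12:12936093-12941836). Its 3 intervals together covered 60.1% of the record. The first spanned the promoter, from -192 to 1089 bp relative to the start of transcription (chr12:12940747-12942028, score 134.11). The second lay only 126 bp further on, from 1216 to 2512 bp into the gene (chr12:12939324-12940620), and scored 497.68, rank 119 of 6632. The third lay from 3882 to 4948 bp into the gene (chr12:12936888-12937954) and scored 104.32. The highest score at Mycn was thus inside the gene and not over its promoter. Gaps of at most 126 bp occurred in 141 (2.13%) of the 6612 neighbouring pairs of intervals. Most pairs lie far apart, and gaps of at most 1 kb occurred in 343. Among genes with an interval on the record, 2.41% were covered to the same or a larger share, and among those no longer than 10 kb it was 10.2%.

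Myc, the founding member of the family, had low-scoring intervals by comparison. The interval at the end of its record (chr15:61985343-61985982) was 640 bp wide and scored 92.28, rank 4977. A second lay 1510 bp away, inside the record (chr15:61987493-61988367), with 97.31, rank 4638. Neither reached the list's median. Its record (chr15:61985341-61990361) was covered to 30.2%. No other protein-coding record lay within 50 kb of Myc or of Mycn, so their intervals had no such neighbour to be shared with. Over all 2484 protein-coding genes with that much empty sequence around them, 19.9% had an interval at an end and 2.58% had 2 or more on the record.

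Mycl, the other MYC gene, had a single interval of 1076 bp with a score of 129.44 (chr4:122995880-122996955). Its midpoint lay 486 bp downstream of the listed start. A second interval, 13.8 kb beyond the record (chr4:123016304-123017184, score 84.23), lay over the promoter window of Trit1, a tRNA-modifying enzyme gene. The MYC genes thus all had an interval at an end, with end scores from 92.28 at Myc to 134.11 at Mycn. A single library gives no spread against which to order these scores.

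Max, the shared partner, had a single interval centred 153 bp downstream of its start (chr12:76961542-76962649). Its score of 92.43 was close to that of Myc and ranked 4683 among the 5930 genes with an interval at an end. The E-box of the Max promoter shown above begins 3 bases before the start and lies inside this interval.

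The MXD genes, which encode the SIN3-recruiting repressors, were split. Mxi1 (chr19:53310128-53373293) and Mxd3 (chr13:55325170-55329900) had 2 intervals each on the record, and Mxd1 (chr6:86647044-86669234) and Mxd4 (chr5:34176580-34187710) had none. At Mxi1 the best interval (chr19:53313012-53314139) scored 312.89, rank 496 of 6632, and was centred 3069 bp downstream of the first listed start. No listed start lay under it, and the record of a long non-coding RNA, Gm30541 (chr19:53306741-53326867), also covers it, so which of these 2 genes it belongs to is not known. The second interval (chr19:53329337-53330573, score 151.78) overlapped the promoter windows of the other 2 listed starts, which lie far inside the record. Mxi1 is known in the mouse to give alternative proteins with and without the SIN3-binding domain. Its first listed start had no interval over its promoter window. Another interval, 16.3 kb past the record (score 82.88), was at the splicing factor gene Smndc1.

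Mxd3, an MXD gene active in cycling cells, had its intervals side by side across the start. The inner (chr13:55329060-55329813) scored 99.9 and the outer (chr13:55329833-55330655) scored 158.95, and only 19 bp separated them. Gaps of at most 19 bp were found in 27 (0.408%) of the neighbouring pairs in the list, and gaps of at most 1 kb in 343. Another interval in the neighbourhood, 2.51 kb from the record (chr13:55321318-55322661, score 177.78), was at the ends of Rab24, a Rab GTPase gene, and Prelid1, a mitochondrial lipid transfer gene.

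Around Mxd1 and Mxd4 the list was empty well beyond the genes themselves. The nearest interval to Mxd1 (chr6:86732454-86733831, score 218.92) overlapped the promoter window of Gmcl1, and that to Mxd4 (chr5:34286824-34288735, score 136.55) overlapped those of Zfyve28 and Cfap99. Other protein-coding records within 50 kb were not lacking, 4 at Mxd1 and 3 at Mxd4. An interval missing from the list means only that the enrichment did not reach the authors' limit in this library.

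Mnt, a widely expressed MAX partner that also recruits SIN3, had the widest interval of the network. It ran from -1585 to 1858 bp relative to the start of the record (chr11:74829221-74832664), was 3444 bp wide (percentile 99.6 of all widths) and scored 214.91. Mnt ranked 1266 of the 5930 genes with an end interval. A further 2 intervals lay inside the gene, with midpoints 6975 and 12245 bp downstream of the start. They scored 191.84 (chr11:74837280-74838518) and 104.9 (chr11:74842675-74843664). The E-box of the Mnt promoter, 123 bases before the start, was inside the wide interval.

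Mga, the longest gene of the network (chr2:119872503-119970129), had an interval at the start of its record and another far inside it. The first (chr2:119872258-119873626) scored 173.97. The second (chr2:119896931-119898572) scored 137.29 and was centred 523 bp downstream of the start that RefSeq's promoter table lists for Mga, which lies well inside the record. Mga thus had an interval at the outer end of its record and another at its listed start.

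Intervals were also set against the listed starts of transcription. Starts were listed for 9 of the 10 genes, and 7 of these 9 had an interval within 1 kb of one, against 28.0% of the 17492 protein-coding genes with a listed start. For 8 intervals of the network the midpoint was within 1 kb of a listed start, and in 7 of them it lay downstream, the outer interval of Mxd3 being the exception; over the list the downstream share was 83.4%. Of the 16 intervals on the records, 7 had no protein-coding gene end within 1 kb, against 19.7% of all intervals. Over the 9 genes with a listed start, 4 of 14 intervals had neither a gene end nor a listed start within 1 kb. These were the middle one of Mycn, the first of Mxi1 and the 2 inside Mnt. The share was 11.1% over all intervals on the chromosomes the table covers, whether inside a gene or between genes. Intervals of that kind, not all of them inside genes, had a median score of 103.1. Of these, 8 (1.12%) scored as high as the middle interval of Mycn or higher, that interval included. It was picked as the highest score on the network's records. Its near edge, 1216 bp from the start of Mycn, lies only just outside the 1 kb limit.

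Promoter sequence was read in windows of 300 bases, 250 before and 50 after each listed start; the network had 11 windows, 3 of them at Mxi1. Intervals overlapped 8 of the 11, against 24.0% of 21255 windows of protein-coding genes. The 2 overlapped windows of Mxi1 share bases and were reached by the same interval (score 151.78), which is counted at both. Their GC content ran from 56.0% at the first start of Mxi1 to 76.7% at Mxd1, with a median of 64.0% against 56.3% over all windows. The ratio of observed to expected CpG ran from 0.584 at Mycn to 1.19 at the start of Mxi1 listed last, with a median of 0.731 against 0.567. Over all windows the overlapped share rose with this ratio, from 0.213% below 0.2 to 35.9% between 0.6 and 0.8, 48.9% between 0.8 and 1.0 and 55.3% above. The part of CpG content in the share of network genes with an interval was not tested. Among the network's own windows without an interval the ratio was 0.645 at Mxd4, 0.731 at the first start of Mxi1 and 0.929 at Mxd1.

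**Figure D3:**
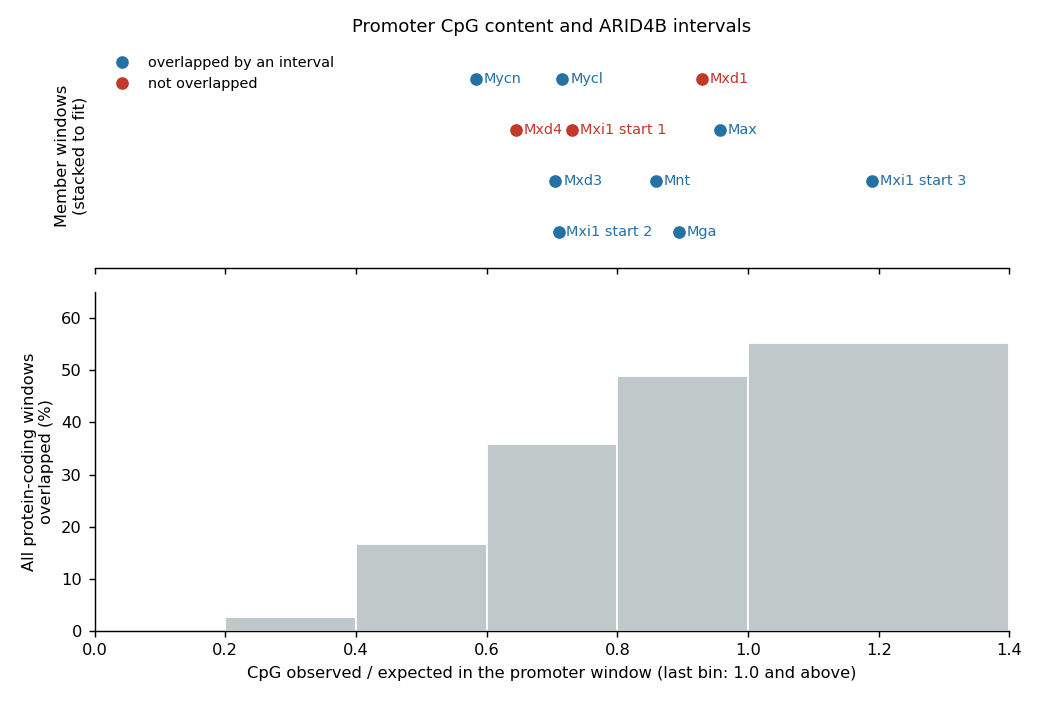
CpG content of promoter windows. The lower panel gives the share of all protein-coding promoter windows overlapped by an ARID4B interval in bins of observed over expected CpG, and the upper panel places the 11 network windows on the same axis, at heights chosen only to fit the labels. Mxd1 has no interval at a ratio of 0.929, while Max, at 0.957, does.

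The E-box CACGTG was present in 3 of the 11 windows, at Max, Mnt and Mxd4, against 7.84% of all windows. It was found in 11.9% of windows that an interval overlapped and in 6.55% of the others. CACGTG is its own reverse complement, so a single search covers both strands. The Mxd4 E-box, 219 bases before the start, lay in a window with no interval, as did those of 1059 of the 1666 windows with CACGTG. The looser letters CANNTG, which include CACGTG, were in 8 of the 11 windows and in 69.0% of all. They went the other way, with 58.1% of overlapped windows and 72.5% of the others. The AT-rich letters AATATT, searched because ARID4B belongs to the AT-rich interaction domain family, were in none of the 11 and in 1275 of the 21255. Their shares were 1.83% of overlapped windows and 7.31% of the others. Overlapped windows had a median GC content of 65.3%, against 53.3% in the others, and its part in these shares was not tested. These are matches of letters within the window and not sites shown to be bound.

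The Mycn promoter held TTTGGCGC on the sense strand at 2 places, 183 and 168 bases before the start. The letters were searched on both strands after the Mycn sequence had been seen. They occurred in 0.635% of all windows, in 0.943% of those with an interval and in 0.538% of those without. A pair of matches was found in only 2 windows of 21255, those of Mycn and Mcm6, a replication licensing gene. Mycn was certain to be among them, since its sequence had been seen when the letters were chosen. Both windows were overlapped by an interval, as were 24.0% of all windows. A link between these letters and the intervals was not tested. The human MYCN promoter is known to be controlled by E2F proteins, the factors held in check by the retinoblastoma family.

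Beyond the 10 genes, intervals were also frequent among genes that work with MYC, MAX and the MXD proteins. Of 17 MYC coactivators and chromatin partners 12 had an interval at an end. Among them were the acetyltransferase gene Ep300 (score 488.61), the elongation kinase gene Cdk9 (248.01) and Ep400 (212.18), while Ruvbl1, Ruvbl2, Hcfc1, Smarcb1 and Bptf had none at an end. The median best score of this list was 126.1, below the 132.2 of all genes with an end interval. Of 25 classical MYC targets of growth and proliferation 15 had one, led by the nucleolin gene Ncl (499.89), Eif4a1 (434.6, shared with Senp3), the chaperonin gene Hspd1 (366.98, shared with Hspe1) and Nop56 (267.54). Their median was 219.8. Odc1, the polyamine enzyme gene long used as a MYC target, had 236.51.

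Genes for MYC turnover and MYC kinases had an interval at 9 of 16, with a median of 118.1, among them the kinase gene Pim1 (483.41), Cip2a (180.94, shared with Dzip3) and Gsk3b (135.11). SIN3 and histone deacetylase subunits had one at 10 of 17, with a median of 304.7. Besides Arid4a (639.41), Ing2 (540.77), Sinhcaf (450.42) and Sin3a (402.47), the second scaffold gene Sin3b had one with 183.03, and Arid4b itself had none. PRC1.6 genes, the partners of MGA, had one at 6 of 13, with a median of 169.4: Hdac1 (372.07, shared with Marcksl1), Ring1 (338.23, shared with H2-Ke6), Wdr5 (198.38) and Tfdp1 (140.51) were the best. The MLX branch, whose members Mlx, Mlxip and Mlxipl form a parallel network without MAX, had one at 0 of 3. Mlxipl did have 1 interval inside its record, over 1 kb from the ends. Hdac1, Hdac2 and Wdr5 stand on 2 of these lists each. All 6 shares stand beside the 27.1% of all protein-coding genes, and no list was compared with genes of like CpG content or with expressed genes. Markers of the labelled tissue were counted in the same way, also beside the 27.1% of all protein-coding genes. An interval at an end was present at 7 of 12 Sertoli cell markers and 3 of 8 germ cell markers. The other counts were 0 of 6 Leydig, 1 of 4 peritubular myoid, 1 of 4 endothelial and 0 of 3 macrophage markers. These lists are small, and an interval list does not measure expression.

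**Figure D4:**
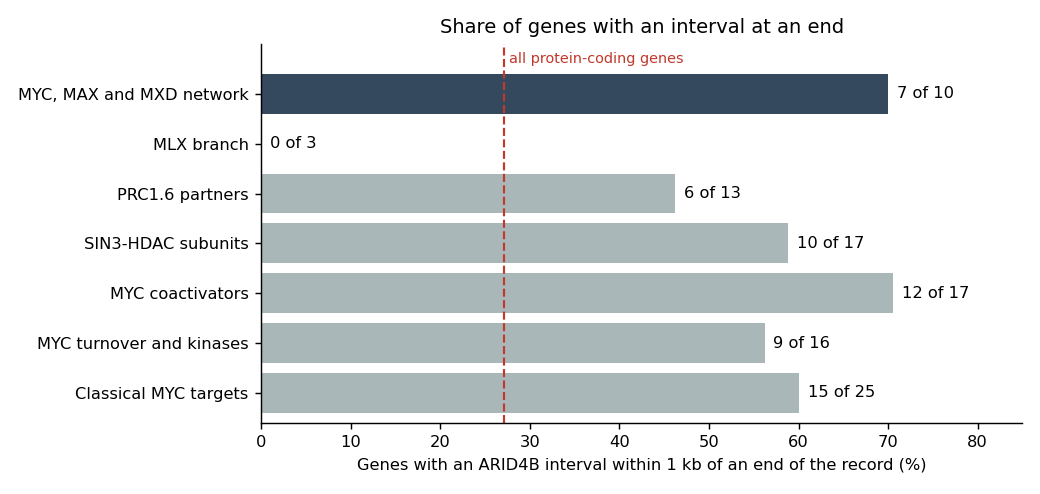
Share of genes with an ARID4B interval within 1 kb of an end of the record. Each bar is a list, with its number of genes with an interval and its size beside it, and the dashed line is the share of all protein-coding genes (27.1%). The network (7 of 10) and the MYC coactivators (12 of 17) have the longest bars, and the MLX branch (0 of 3) has none.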

How the data were processed

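Chromatin of 1 pool of newborn mouse testes was immunoprecipitated for ARID4B and sequenced beside an input library. BWA and MACS and the build mm9 are named in the submitters' processing notes; no source used here gives their versions, parameters or filters. A single list of intervals was deposited by the authors, each interval with a score. The list is named for p-values, yet its lowest score is 70.02, so scores only describe and rank intervals within this list. The list is also named for mm10, and 80.3% of intervals had an end of a protein-coding record at most 1 kb away on RefSeq GRCm38.p6 (9.94% when shifted by 200 kb), so positions were read as GRCm38 and are printed counting from 1. The input library's values and the reads were not analysed here, so depth and its precision are unknown.

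Computed here (Python 3.11.15, pandas 2.3.3): overlaps of at least 1 bp with the record, with 1 kb either side of its ends, and with 50 kb around it, for all 21887 protein-coding genes alike. The gene table gives no strand or exons, so strand and starts came from RefSeq's promoter table (9 of the 10 genes), and no exon, intron or UTR is given for an interval. The overlap step gave the same answer as a direct search at 300 of 300 genes on simulated data. With 1 library there is no replicate and no test. The members and lists were chosen with earlier results of these data known. Named genes are the 10 members, the genes at their neighbouring intervals, up to 4 best genes of each list with those lacking an interval where 5 or fewer, Arid4a, Arid4b, Sin3a and Sin3b; Mcm6 and Odc1 were named after their values were seen, and some genes of the lists are not reported here. Protein sequences of the members were planned and not used here. Alternatives were windows of 500 bp and 5 kb, midpoints, intervals above the median score, listed starts, whole records, and distances of 10 and 100 kb. Neighbouring intervals joined, and intervals above the median score for the count of genes with 2 or more, were added after seeing the data.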

Additional observations from a re-analysis of the deposited data

How the results depend on the processing

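The number of network genes with an interval at an end, 7, was also 7 with windows of 500 bp (25.3% of all genes), with midpoints (24.7%) and, of 9, with listed starts (28.0%). It was 8 with windows of 5 kb (32.1%) or anywhere in the record (30.7%) and 5 with intervals above the median score (14.8%). The number with an interval within 50 kb, 8, was the same within 10 kb (36.6% of all genes) and by midpoints (52.2%), 10 within 100 kb (62.4%) and 6 with intervals above the median score (34.0%). The neighbourhoods held 19 intervals, 17 within 10 kb, 26 within 100 kb and 11 when only intervals above the median score were kept. The median best score at an end moved from 134.1 to 175.9 with windows of 5 kb, which reach the inner intervals of Mycn and Mxi1 and the interval at Rab24 and Prelid1; over all genes it was 133.1 there. With intervals above the median score, 4 genes had 2 or more on the record (0.690% of all genes). That setting removes the low-scoring intervals of Myc and Max by its construction. It also lowered the counts at an end to 6 of 17 for the MYC coactivators and 4 of 16 for the MYC turnover genes. The classical MYC targets kept 14 of 25, the SIN3 and histone deacetylase subunits 9 of 17 and the PRC1.6 genes 4 of 13. With windows of 5 kb the MLX branch had 1 of 3. No paired analysis was possible because each group has 1 library. Depth is unknown, so a gene without an interval, such as Mxd1 or Mxd4, was below the authors' limit at an unknown depth.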
